A study of Mus musculus with 2 samples.

Results

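Acetylation of lysine 27 on histone H3 (H3K27ac), a chromatin mark carried by promoters and enhancers in use, was examined at 6 loci that serve as markers of non-muscle cells of the heart. Kdr, Tek, Cdh5 and Tal1 mark endothelium and endocardium, and Wt1 and Tcf21 mark epicardium. The members were all peaks of either list whose midpoint lay in a fixed window around one of these genes. The rule used positions alone, although the loci were chosen with earlier results of these data known. They came to 93 of 154664 peaks, 47 of 87572 in the atrioventricular canal (AVC) list and 46 of 67092 in the chamber list. At these loci the comparison asks whether chromatin of endothelial or epicardial cells can be seen in material sorted from either part of the heart.

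The chromatin came from mouse hearts at stage E10.5, FVB/N background, in embryos carrying both the Katushka and the EGFP reporter. The AVC library was labelled as EGFP cells of the atrioventricular canal and the chamber library as Katushka cells of the chambers, and both were obtained by flow sorting and immunoprecipitated with the same antibody. The sources used here do not say what drives either reporter, how many hearts were used or whether cells were pooled. Each tissue had 1 library, so no test between tissues could be made, and the intervals below cover counting error only. A larger share of endothelial or epicardial cells in a sort and more acetylation per cell cannot be told apart in such material.

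At this stage the heart holds muscle cells, an inner lining of endocardium and an outer sheet of epicardium that is still spreading over the surface. Kdr encodes the main receptor for vascular endothelial growth factor, Tek the angiopoietin receptor Tie2, and Cdh5 the adhesion molecule VE-cadherin of endothelial junctions. Tal1 encodes a basic helix-loop-helix transcription factor of blood and endothelial cells. Wt1 encodes a zinc finger transcription factor, and Tcf21 another basic helix-loop-helix factor, both known in the epicardium and the cells it releases.

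The windows were, in mm9, chromosome 5 from 76250001 to 76450000 for Kdr, chromosome 4 from 94350001 to 94580000 for Tek, and chromosome 8 from 106550001 to 106720000 for Cdh5. Those of the others were chromosome 4 from 114650001 to 114800000 for Tal1, chromosome 2 from 104850001 to 105080000 for Wt1 and chromosome 10 from 22430001 to 22630000 for Tcf21. They were 150 to 230 kb wide, so they can also hold parts of neighbouring genes. In the RefSeq gene order of GRCm38 the nearest protein-coding neighbours were Kit and Srd5a3 for Kdr, Lrrc19 and Eqtn for Tek, and Cdh11 and Bean1 for Cdh5. For Tal1 they were Stil and Pdzk1ip1, for Wt1 Eif3m and Them7, and for Tcf21 Tbpl1 and Eya4. No mm9 annotation was used here, so peaks are placed by their mm9 position and are not assigned to a promoter, exon or intron.

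Promoters of Tal1 and Tcf21 are shown because these were the loci with the largest excess of chamber and of AVC peaks. The 250 bases before the annotated start come from RefSeq in the build GRCm38.p6, and their coordinates cannot be set against the mm9 peaks. Capitals mark AGATAA, a form of the GATA factor motif, on either strand. The Tal1 stretch, the first of 2 annotated starts, is chr4:115056176-115056425 on the plus strand, and the Tcf21 stretch is chr10:22820144-22820393 on the minus strand.
Tal1: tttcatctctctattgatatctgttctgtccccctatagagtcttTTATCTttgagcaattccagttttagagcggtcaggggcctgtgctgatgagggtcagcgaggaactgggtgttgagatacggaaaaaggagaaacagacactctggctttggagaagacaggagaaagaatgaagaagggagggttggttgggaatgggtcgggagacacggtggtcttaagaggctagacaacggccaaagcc
Tcf21: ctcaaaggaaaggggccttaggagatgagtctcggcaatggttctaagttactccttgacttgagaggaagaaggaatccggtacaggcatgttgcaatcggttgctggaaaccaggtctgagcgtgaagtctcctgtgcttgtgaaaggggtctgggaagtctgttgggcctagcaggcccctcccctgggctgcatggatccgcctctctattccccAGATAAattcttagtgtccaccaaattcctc

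The letters AGATAA began 205 bases before the Tal1 start, as the reverse complement, and 31 bases before the Tcf21 start. The other annotated Tal1 start, not printed, held none of the letters searched. AGATAA was found on either strand in 9.99% of 32851 promoter stretches of this length. Of the other letters searched, the ETS-type CCGGAA and CAGGAA and the E-box CAGATG, none was in either printed stretch. They were present in 12.0%, 25.7% and 14.4% of all stretches. A match to any of the letters searched, AGATAA included, was present in 50.3%. The Kdr promoter held CCGGAA (reverse complement) and CAGATG, and the Tek promoter held CAGGAA as the reverse complement at 2 positions. No promoter stretch was available for Cdh5 or Wt1, so these were not searched. A match describes the letters and does not show a bound site.

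All 6 loci held peaks in both lists. So did 86.3% of 11337 autosomal windows of 200 kb with at least 1 peak, and 99.7% of those with at least 10, so this alone does not set the marker loci apart. Each deposited peak has a whole-number signal value, not scaled between the lists, and a score, the peak caller's Log(ER), for which only values above 2 were deposited. The median signal value of the members was 32 in the AVC and 27.5 in the chambers, against 31 and 29 over all peaks of the lists. The median scores were 2.63 and 2.585, against 2.62 and 2.81, so a typical member was close to a typical peak of its list. Summed signal per locus ran from 157 (Tal1) to 632 (Wt1) in the AVC and from 125 (Cdh5) to 417 (Wt1) in the chambers.

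The endothelial loci held more chamber than AVC peaks and the epicardial loci more AVC than chamber peaks. At Kdr, Tek, Cdh5 and Tal1 together there were 24 AVC and 32 chamber peaks, an AVC share of 42.9% (exact 95% interval 29.7 to 56.8). At Wt1 and Tcf21 there were 23 AVC and 14 chamber peaks, an AVC share of 62.2% (44.8 to 77.5). Over all peaks of both lists the AVC share was 56.6%, which lay inside both intervals, so neither group stood apart from the lists beyond counting error. When narrower peaks than 300 bp were dropped the endothelial AVC share was 57.9%, more AVC than chamber peaks, and the epicardial share was 80%. That limit drops 41.4% of chamber but 9.13% of AVC peaks of the whole lists, so their AVC share rises as well. The share of the lists at this width was not computed, so 57.9% and 80% cannot be set against 56.6%. Peaks of 1 locus are not independent, which makes these intervals too narrow. Cdh5 went against the other endothelial loci, with more AVC than chamber peaks.

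Kdr held 5 AVC and 8 chamber peaks, Tek 7 and 10, Cdh5 8 and 5, and Tal1 4 and 9. Wt1 held 9 and 7, and Tcf21 14 and 7. Among 5804 autosomal windows of 200 kb with at least 10 peaks over both lists, 27.4% had at least 2 times as many AVC as chamber peaks and 5.29% at least 2 times as many chamber as AVC peaks. The first of these limits was met by Tcf21 with a ratio of 2, and the second by Tal1 with a chamber-to-AVC ratio of 2.25. More chamber than AVC peaks, as at Kdr, Tek and Tal1, were found in 29.3% of those windows, and more AVC peaks, as at Cdh5, Wt1 and Tcf21, in 64.0%. Divided by the 1.305-fold difference in list length, an alternative chosen after seeing the data, the AVC-to-chamber ratio was 1.53 at Tcf21 and 0.341 at Tal1, so that Tcf21 fell short of the limit. On this scale 15.2% of the windows had an AVC and 11.3% a chamber excess of at least 2 times. Tal1 still met the second of these limits, and Kdr, with a ratio of 0.479, now met it too. Wt1 then had a ratio of 0.985 in place of 1.29.

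By peak density the loci lay on both sides of the median region in the AVC and above it in the chambers. The median over 11337 autosomal windows of 200 kb with at least 1 peak in either list was 30 peaks per Mb in the AVC and 15 in the chambers. Some of these windows had no peak in 1 of the lists, and the loci are not all 200 kb wide. In the AVC the loci ran from 25 peaks per Mb at Kdr, the 43.3 percentile of these windows, to 70 at Tcf21, the 86.1 percentile. Kdr and Tal1 (26.7 per Mb) lay below the median and Tek (30.4) next to it. In the chambers all 6 loci lay above the median, from 29.4 per Mb at Cdh5, the 63.9 percentile, to 60 at Tal1, the 86.6 percentile. With peaks of at least 300 bp 4 loci were above the chamber median, and at scores of at least 3 this held for 5. With windows of at least 5 peaks as the reference, the AVC median was 40 and only Cdh5 and Tcf21 lay above it. The chamber median was then 25, with all 6 loci above it.

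**Figure D1:**
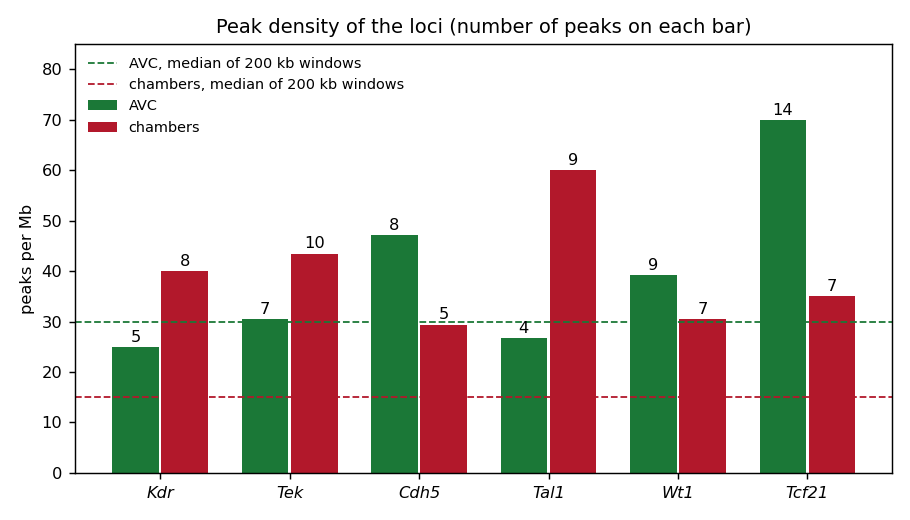
Peaks per Mb (vertical axis) at the 6 loci (horizontal axis) in the AVC (green) and the chambers (red), with the number of peaks written on each bar and the median of 200 kb windows as dashed lines. Each bar is 1 library and has no replicate error. Tal1 has the highest chamber bar, 60 per Mb, and Tcf21 the highest AVC bar, 70 per Mb.

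Few member peaks were called at the same place in both tissues. Of the AVC members 12 of 47 overlapped a chamber peak by at least 1 bp, 25.5% (13.9 to 40.4), against 23.2% of the whole AVC list. Of the chamber members 12 of 46 overlapped an AVC peak, 26.1% (14.3 to 41.1), against 31.6% of the chamber list. Both shares were close to those of the lists. At the endothelial loci 5 of 24 AVC and 5 of 32 chamber peaks overlapped, and at the epicardial loci 7 of 23 and 7 of 14. Of the 35 AVC members without overlap 4 lay within 1 kb of a chamber peak and 19 lay more than 10 kb from any. Of the 34 such chamber members 8 lay within 1 kb of an AVC peak and 12 more than 10 kb away. These distances were not counted over the whole lists, so whether such numbers are usual is not known.

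**Figure D2:**
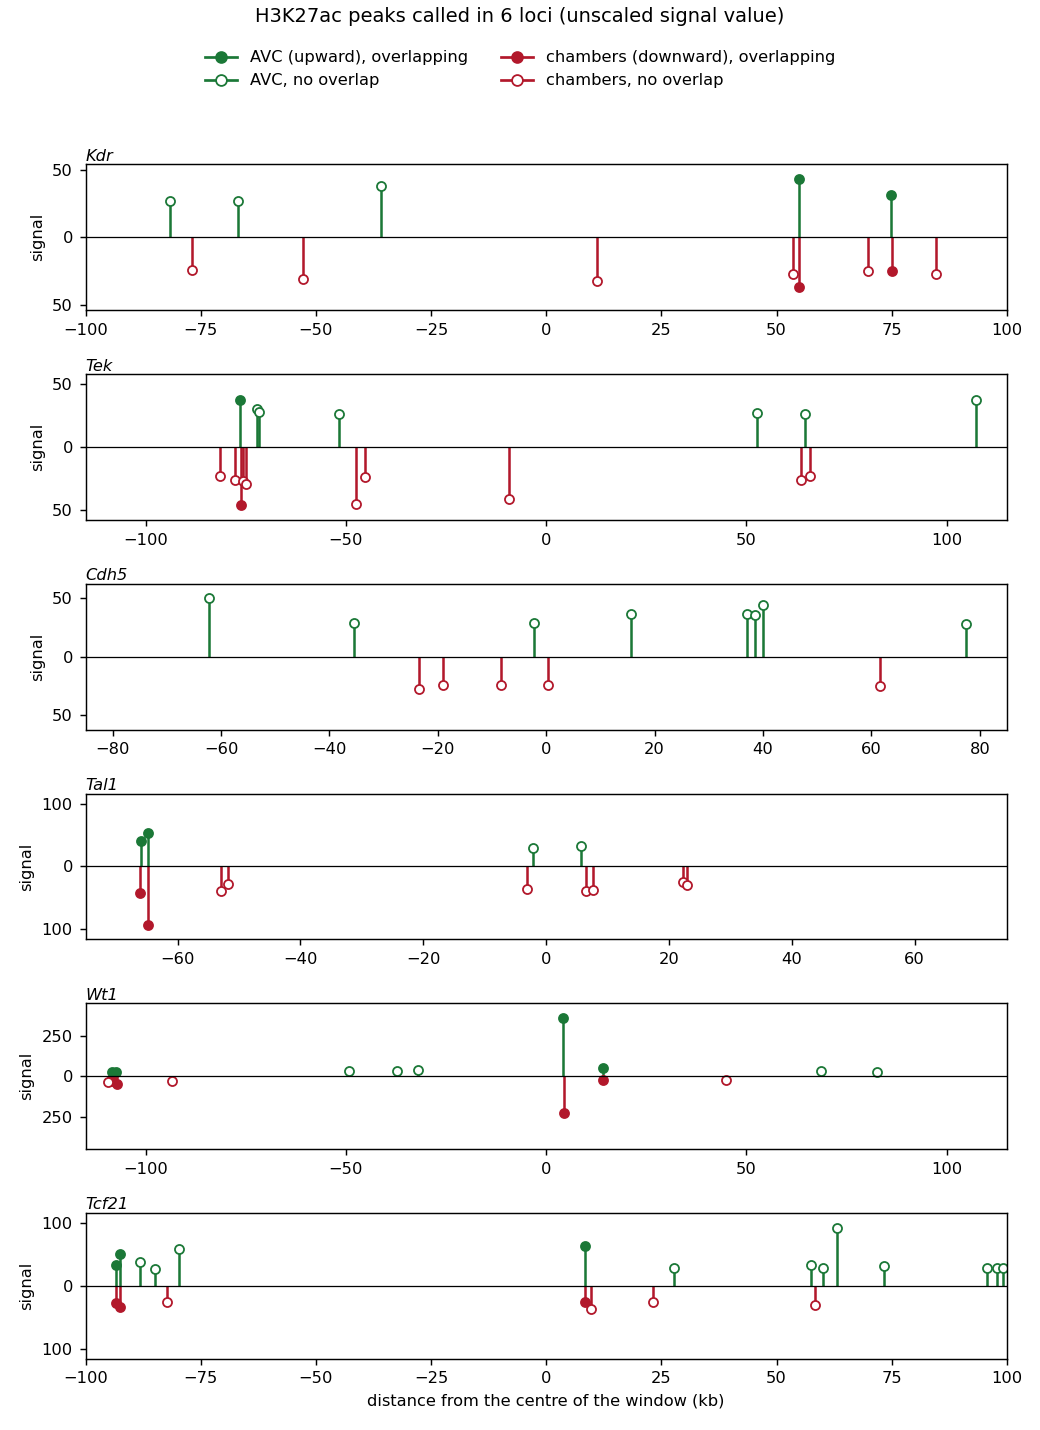
Position of every member peak as distance from the centre of its window in kb (horizontal axis) against its unscaled signal value (vertical axis, AVC upward, chambers downward, a separate scale for each locus). Filled points overlap a peak of the other list and open points do not. Cdh5 has open points alone, and at Wt1 a peak of 360 (AVC) and 228 (chambers) stands above the others.

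At Kdr no peak reached a score of 5 in either list. Its AVC signal values ran from 27 to 43 and its chamber values from 24 to 37. The strongest peak was at the same place in both, at 76404903 to 76405007 in the AVC, with a value of 43, and at 76404854 to 76405006 in the chambers, with a value of 37. It was only 105 and 153 bp wide. The other overlapping peak, at 76424572 to 76425113 in AVC coordinates, had a value of 31 in the AVC and 25 in the chambers. The next AVC peak by value, 38 at 76313861 to 76314503, had no chamber peak within 10 kb. In the chambers the next were 32 at 76360867 to 76361200 and 31 at 76297012 to 76297525, and neither overlapped an AVC peak.

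At Tek the chamber peaks formed a group near the start of the window. Between 94383422 and 94390269 there were 5 chamber peaks, none more than 5 kb from the next, with values from 23 to 46. The strongest, at 94388623 to 94389144, had a value of 46 and a score of 5.56. It overlapped the single shared AVC peak of the locus, at 94388107 to 94388880, with a value of 37. The chambers had another peak above a score of 5, at 94417301 to 94417683 with a value of 45 and a score of 5.40, and the nearest AVC peak was 3960 bp away. The third by value, at 94455507 to 94456055, had a value of 41, and no AVC peak lay within 10 kb. AVC values ran from 26 to 37, and no AVC peak reached a score of 5. The second AVC peak of value 37 lay at 94572075 to 94572765, where the chambers had no peak within 10 kb, and the next by value was 30 at 94392503 to 94392992.

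Cdh5 was the locus without any shared peak: 0 of 8 AVC peaks (0 to 36.9%) and 0 of 5 chamber peaks (0 to 52.2%). The AVC values ran from 28 to 50 and the chamber values from 24 to 28. The groups met only at 28, where the highest chamber and the lowest AVC value were equal, but the values are not scaled between lists. The strongest AVC peak, at 106572417 to 106573197, was 781 bp wide with a value of 50 and a score of 5.14, and the nearest chamber peak was over 10 kb away. A run of 3 AVC peaks spanned 3444 bp from 106671759 to 106675202, with values of 37, 36 and 44 in order of position. No chamber peak lay within 10 kb of that run. In the chambers the highest value was 28 at 106611494 to 106611618, followed by 25 at 106696449 to 106696863, and the other 3 all had a value of 24. AVC peaks covered 4060 bp of the window and chamber peaks 1293 bp, with mean values of 36.3 and 25.

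At Tal1 the strongest peaks were shared and lay near the start of the window. The peak at 114659884 to 114660411 in the chambers had a value of 93 and a score of 13.96. Its AVC partner, at 114659937 to 114660572, had a value of 54 and a score of 5.78. Next to it, at 114658722 to 114659413, the AVC value was 41 and the chamber value 43. These shared peaks lay about 65 kb before the centre of the window. In gene order Stil and then Cmpk1 lie on that side of Tal1, so these peaks may belong to a neighbouring gene. They were not assigned to any gene. Nearer the centre each list had calls that did not overlap those of the other. The AVC had 29 at 114722640 to 114723123 and 33 at 114730558 to 114730884. The chambers had 36 at 114721698 to 114722089, 39 at 114731352 to 114731558 and 37 at 114732470 to 114732865, and the gaps to the nearest AVC peak were 550, 467 and 1585 bp. Another chamber peak, of value 39 at 114671739 to 114672295, had no AVC peak within 10 kb.

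At Wt1 the summed signal rested on a peak that both lists held. At 104969143 to 104969472 the AVC value was 360, a score of 28.99, and at 104969372 to 104969544 the chamber value was 228, a score of 28.35. These were the 652nd and the 597th highest values of their lists. The chamber peak was 173 bp wide and the AVC peak 330 bp, and 101 bp were common to both. It made up 57.0% of the AVC and 54.7% of the chamber sum of the locus. The ratio of the sums was 1.52 with it and 1.44 without it, and that of the whole lists was 1.51. Of 1378 overlapping pairs with an AVC value of at least 200, 1256 had a peak under 300 bp in at least 1 list, and the median AVC-to-chamber ratio of the 1378 was 1.73 (interquartile range 1.62 to 1.86). The Wt1 ratio of 1.58 lay just below that range. Being called in both lists is usual for narrow peaks of high score. Among peaks under 300 bp with a score of at least 10, 1818 of 1819 in the chambers and 2054 of 2057 in the AVC overlapped the other list. The Wt1 chamber peak is of that kind, so its being shared does not set the locus apart. Another peak of high value lay 28228 bp beyond the window in the AVC, with a value of 295, and 28200 bp beyond it in the chambers, with a value of 181.

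The other Wt1 peaks were of the size seen at the endothelial loci. A shared peak at 104979036 to 104979265 had a value of 52 in the AVC and 26 in the chambers. At the start of the window the relation was turned: at 104857517 to 104858023 the chamber value was 50, a score of 6.06, and its AVC partner had a value of 27. Beside it, at 104856487 to 104856866, both lists had a value of 29. The highest AVC value without a chamber partner was 39 at 104932747 to 104933260, in a stretch from 104915457 to 104933260 with 3 AVC peaks and no chamber peak. The highest such chamber value was 33 at 104855243 to 104855753.

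Tcf21 was the locus richest in AVC peaks. Of its 14 AVC peaks 4 had a score of at least 5, and of its 7 chamber peaks none. The strongest, at 22592274 to 22593893, was 1620 bp wide, the widest of the members, with a value of 93 and a score of 11.37, and the nearest chamber peak was 3775 bp away. A peak of value 59 and score 6.20 at 22449912 to 22450544 also had no overlap, with a chamber peak of value 25 at a distance of 1949 bp. The other strong peaks were shared. At 22538319 to 22538601 the AVC value was 63 and the chamber value 25, and at 22437351 to 22437555 they were 51 and 33. A further shared peak, at 22436249 to 22436832, had values of 33 and 27. The highest chamber value of the locus, 37 at 22539649 to 22540022, lay 1047 bp from the AVC peak of 63, and the third by value was 31 at 22588293 to 22588498.

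The chamber list was empty over a long stretch that began inside the Tcf21 window. After the chamber peak ending at 22588498 the next began at 23507137, a distance of 918.6 kb. The AVC list had 27 peaks there, 6 in the window and 21 beyond it, with a median value of 31. That is close to the median AVC density of 30 peaks per Mb over the 200 kb windows. Only the peak of value 93 among them had a score of at least 5. Of 66123 distances between neighbouring chamber peaks on the autosomes 83 were as long, 0.126%. This is a share by number, in which short distances weigh as much as long ones. The part of the genome that lies in such stretches is larger and was not computed. The adjoining 200 kb after the window held 11 AVC peaks and no chamber peak, and the 200 kb before it 9 and 4.

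Around the other loci the balance often differed from that in the window. The stretch of equal width before Tal1 had 7 peaks in the AVC and 2 in the chambers, and the stretch after it 4 and 1, against 4 and 9 within the window. Before Tek there were 13 in the AVC and 9 in the chambers, and after it 17 and 10, against 7 and 10 within. At both loci the chamber excess of the window was not found in the adjoining stretches. Before Cdh5 the AVC had 11 and the chambers 1, and after it 8 and 5. Before Kdr the numbers were 5 and 3, and after it 10 and 12. On either side of Wt1 there were 4 AVC and 5 chamber peaks.

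Few peaks lay close to a window's edge. The member nearest to an edge was an AVC peak 931 bp inside the Tcf21 window, with a value of 28, and the nearest peak outside was an AVC peak 455 bp beyond the end of the Cdh5 window, with a value of 33.

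Strong peaks, with a score of at least 5, numbered 8 of 47 in the AVC, 17.0% (7.65 to 30.8), and 6 of 46 in the chambers, 13.0% (4.94 to 26.3). In the whole lists 9.95% of AVC and 18.1% of chamber peaks reached that score, and both percentages lay inside the intervals. The endothelial loci had 2 strong AVC and 4 strong chamber peaks, and the epicardial loci had 6 and 2. Tcf21 alone gave 4 of the 8 strong AVC peaks. At a score of at least 10 there were 2 in each list, the Wt1 peak in both, the Tcf21 peak of value 93 in the AVC and the Tal1 peak of value 93 in the chambers. In the whole lists 3188 of 87572 AVC and 4333 of 67092 chamber peaks reached a score of 10. Kdr held no peak with a score of at least 5 in either list. Scores are set within each chromosome, so equal scores need not mark equal enrichment.

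At peaks called in both lists the share of pairs that differed between tissues was near that of all such pairs, on few pairs. The AVC-to-chamber ratio of each of the 12 member pairs was centred on the median over 20324 overlapping pairs, 1.08, because the lists are unscaled. A pair counted as different when it lay at least 2-fold from that median, as 3.77% of all pairs did with the AVC higher and 10.2% with the chambers higher, 14.0% in all. Of the 12 member pairs 1 met this, with the AVC higher: the Tcf21 peak at 22538319, whose values of 63 and 25 gave 2.34-fold after centring. The Wt1 pair of 27 and 50 fell just short on the chamber side, at 1.99-fold. The Tal1 pair of 54 and 93 was 1.86-fold towards the chambers, and the Wt1 pair of 52 and 26 was 1.86-fold towards the AVC. The called Tcf21 pair was narrow, 283 bp in the AVC and 129 bp in the chambers. Over all pairs under 300 bp in both lists the median ratio was 1.64. Centred instead on summed signal, or on pairs of at least 300 bp, 2 member pairs met the limit. Among the 5 member pairs of at least 300 bp in both lists none did. The share over all pairs in these settings was not counted.

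The 5 endothelial pairs had a median centred log2 ratio of -0.18, with 2 towards the AVC and 3 towards the chambers, and the 7 epicardial pairs had 0.52, with 5 and 2. Endothelial and epicardial here name the window alone. The pairs near the start of the Tal1, Wt1 and Tcf21 windows lay far from the centre and were not assigned to a gene. The median over all 12 member pairs was 0.15, with 7 above 0 and 5 below, against 0 over all pairs by construction. Its sign is not settled: it was -0.35 when centred on the summed signal of the lists, -0.15 over the 6 pairs with scores of at least 3 in both lists and -0.20 over the 5 pairs of at least 300 bp in both. Width moved with this ratio. In all pairs of peaks under 300 bp in both lists the median ratio was 1.64, and in pairs of at least 300 bp in both it was 0.925. Among the members, 4 pairs were under 300 bp in both lists, all towards the AVC with a median ratio of 1.76, and of the 5 pairs of at least 300 bp in both 4 were towards the chambers, with a median of 0.804. Of those 4 narrow pairs, 3 were at Wt1 and Tcf21, and the other was the 105 bp peak at Kdr. The part of width in the difference between endothelial and epicardial pairs was not tested.

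**Figure D3:**
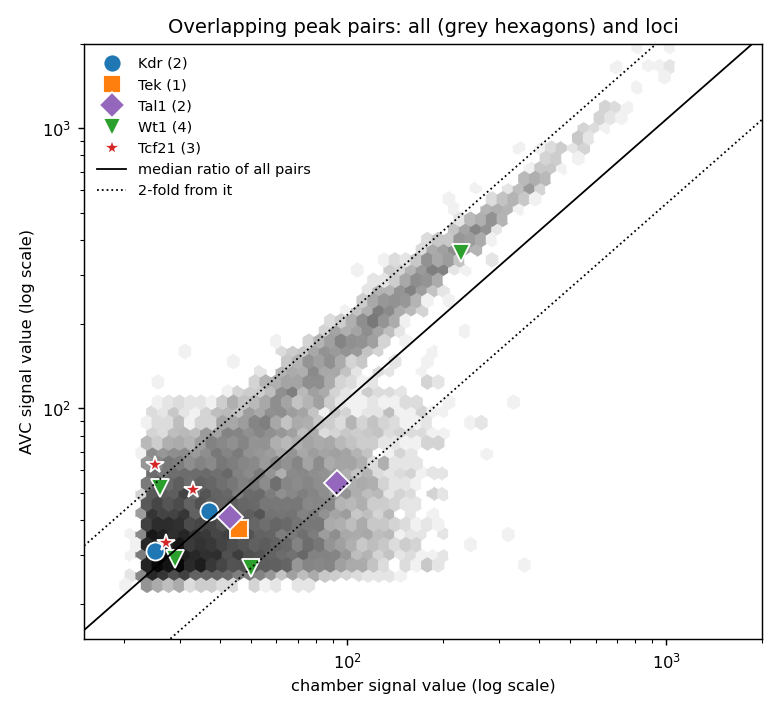
AVC against chamber signal value, both on log axes, for overlapping peaks. Grey hexagons show 20251 pairs of the genome, where darker means more pairs. Another 73 pairs with a value of 2000 or more are outside the plot. The solid line is the median ratio of all 20324 pairs, and the dotted lines are 2-fold from it. Coloured points are the 12 member pairs, with their number per locus in brackets. The Tcf21 point at 63 and 25 lies outside the dotted lines. The Wt1 point at 360 and 228 has a ratio just below the interquartile range of pairs with an AVC value of at least 200.

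Widths differed between the lists at the loci as they did elsewhere. Member peaks had a median width of 482 bp in the AVC and 292.5 bp in the chambers, against 472 and 325 bp over the whole lists. Peaks under 300 bp numbered 5 of 47 and 25 of 46. AVC peaks covered 1.58% of the endothelial and 2.73% of the epicardial windows, and chamber peaks 1.42% and 0.965%. Over the autosomal windows the covered shares were 1.86% (AVC) and 1.03% (chambers). Summed signal, which moves with how much was called, was 824 (AVC) and 1032 (chambers) at the endothelial loci, with mean values per peak of 34.3 and 32.3. At the epicardial loci the sums were 1204 and 620, with means of 52.3 and 44.3, both raised by the shared Wt1 peak. The AVC-to-chamber ratio of these sums was 0.798 at the endothelial and 1.94 at the epicardial loci, against 1.51 over the whole lists.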

How the data were processed

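Sorted AVC and chamber cells gave 1 H3K27ac ChIP-seq library each, sequenced on a SOLiD instrument, per the labels' protocols. Bowtie and SAMtools, with neither role nor version, and the build mm9 are listed in the submitters' processing notes. Per the file headers, OccuPeak 1.3 called peaks in each library by chromosome, with Log(ER) above 2, reads of 50 bases and fragments modelled at 60.5 bp for the AVC and 68 bp for the chambers. The deposited signal value is a whole number, unnamed in the headers and unscaled between lists. The deposited score is that Log(ER), of unstated log base. Depth is unknown. Use of a control library is not stated in the sources at hand. A missing peak shows only that none was called.

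The members, gene classes and motifs were chosen with earlier results of these data known. File starts were read as 0-based and are printed 1-based. Named peaks are the 3 of highest signal value per locus and list, every peak with a score of at least 5 without overlap, and pairs with extreme ratios. A few others complete a locus and were chosen after their values were seen, as were the long distance after Tcf21 and the pairs of high value. Percentiles are mid-ranks among 200 kb windows. Shares carry exact Clopper-Pearson 95% intervals. Overlap and ratio counts were tested on planted peaks. Marker genes beyond the 6 were not analysed here, for want of mm9 positions. Alternatives concerned the score, width, number and placing of peaks, the overlap, the centring and the reference windows. The software was Python 3.11.15 with scipy 1.17.1, pandas 2.3.3, numpy 2.4.6 and matplotlib 3.10.9.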

Additional observations from a re-analysis of the deposited data

How the results depend on the processing

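The AVC share over the 6 loci, 50.5%, stayed inside its interval except with peaks of at least 300 bp, where it was 66.7%, and the endothelial and epicardial shares were then 57.9% and 80%. That limit left 21 chamber peaks and 5 shared peaks in each list, reversed the AVC-minus-chamber difference at Kdr from -3 to 1 peak and set it to 0 at Tek. At scores of at least 3, 19 AVC and 18 chamber peaks remained, 6 of them shared in each list, and Wt1 had 3 and 3. Both limits shorten the lists by construction, and that of 300 bp drops a larger part of the chamber than of the AVC list. The AVC share of the lists at that width was not computed. With neighbours within 1 kb counted as shared, 20 chamber peaks were. The median centred log2 ratio of the pairs, 0.15, changed sign to -0.35 (summed signal), -0.15 (scores of at least 3) and -0.20 (300 bp); the cause was not tested. Against windows of at least 5 peaks 2 loci, not 4, exceeded the AVC median, since sparse windows were dropped. Strong peaks fell to 2 and 2 at a score of at least 10, and the chamber number to 2 among the strongest 10% by signal value. Divided by list lengths, the Wt1 count ratio turned to 0.985. Loci above the chamber median fell from 6 to 5 at scores of at least 3 and to 4 at 300 bp. Differences of single loci, small counts, also moved in size, for example at scores of at least 3 to 2 at Tcf21 and -1 at Kdr and Tek, at 300 bp to 6 at Wt1 and 7 at Cdh5, and with equal numbers of peaks to -6 at Tek. Centred on pairs of at least 300 bp, the median log2 ratio was 0.37. No paired analysis was possible because neither tissue had a second library. Unknown depth limits what a missing peak shows.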
